A study of Mus musculus with 8 samples.

Results

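The genes described here are the interleukin-1 family ligands Il1b, Il18 and Il33, the blocking proteins Il1rn and Il18bp, the receptor genes Il1r1, Il1r2, Il1rap and Il1rl1, and the interleukin-17 receptor gene Il17ra. They were chosen by gene symbol, with the results of this comparison already known, and 9 of the 10 had a probe set that carries that symbol alone, out of 17097 such genes on the array. Il1rl1, which encodes the receptor for Il33, had none and is not analysed here. The 9 genes were read by 16 probe sets.

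The study measured RNA in mouse myeloid cells on 1-colour Affymetrix arrays, in 2 groups of 4. The cells were primary bone marrow cells of C57BL/6 background from a Rosa26-Cre-ERT2 knock-in mouse, transformed by retroviruses that carry Hoxa9 and a floxed Meis1. Both groups therefore hold the inducible Cre and the Hoxa9 virus, and both were grown with 5 ng/ml interleukin-3 and 10% serum. The group called Meis1 deleted had received 4-hydroxytamoxifen at 2 µM, which removes the viral Meis1. For the group called Hoxa9 and Meis1 no dose of the drug is recorded. Loss of Meis1 thus cannot be told apart from exposure to the drug or from Cre activity, and the labels give neither the age of the mouse, nor the number of transformed lines, nor the time after treatment. The labels do not say that the 4 samples of a group were separate cultures, so errors and p-values cover only the spread among these arrays, part or all of which may be technical.

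Ligands of the interleukin-1 family bind a receptor chain on the cell surface and then recruit a shared second chain, encoded by Il1rap for interleukin-1 and for Il33. The joined chains bind the adaptor Myd88, which activates NF-kB and MAP kinases. Several layers hold the signal back: Il1rn encodes a ligand that occupies the receptor without signalling, Il1r2 a receptor that binds the ligand but lacks a signalling tail, and Il18bp a soluble protein that captures Il18. Il1b and Il18 are made as precursors that caspase-1 cuts, whereas Il33 is a nuclear protein released from damaged cells. Il17ra is the subunit shared by several receptors for interleukin-17 cytokines, and its signal also reaches NF-kB.

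The RefSeq table of start sites (GRCm38.p6) held 14 sites for 9 of the 10 genes. Il17ra had none there, so its promoter was not searched. The 250 bases before a start are shown for the 3 genes with the largest rises below, Il18, Il1rn and Il18bp, and for Il33, which had the largest fall. Capitals mark a match on either strand to 1 of 4 motifs: the interferon-response motif GAAANNGAAA, the STAT motif TTCNNNGAA, the Meis motif TGACAG, and the NF-kB consensus motif. Among 32851 promoters of this length, 2.98% held the first, 7.02% the second, 15.9% the Meis motif and 7.25% the NF-kB motif.
Il18 (chr9:50554450-50554699, plus strand): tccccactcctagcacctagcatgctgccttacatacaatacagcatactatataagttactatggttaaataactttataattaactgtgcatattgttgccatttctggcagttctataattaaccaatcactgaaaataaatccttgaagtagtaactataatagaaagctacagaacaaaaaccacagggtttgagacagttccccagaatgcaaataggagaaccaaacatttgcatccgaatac
Il18bp (chr7:102018233-102018482, minus strand): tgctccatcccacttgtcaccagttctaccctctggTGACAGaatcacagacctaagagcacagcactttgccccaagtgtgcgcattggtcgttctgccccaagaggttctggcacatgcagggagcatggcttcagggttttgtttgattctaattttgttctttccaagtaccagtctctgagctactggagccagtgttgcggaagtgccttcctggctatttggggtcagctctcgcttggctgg
Il1rn, the most downstream of 3 starts (chr2:24345121-24345370, plus strand): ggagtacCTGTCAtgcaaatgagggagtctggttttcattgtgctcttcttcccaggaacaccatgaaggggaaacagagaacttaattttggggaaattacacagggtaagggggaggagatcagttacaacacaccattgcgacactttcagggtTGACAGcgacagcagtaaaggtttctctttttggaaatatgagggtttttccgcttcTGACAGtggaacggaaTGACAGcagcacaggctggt
Il33, the upstream of 2 starts (chr19:29924863-29925112, plus strand): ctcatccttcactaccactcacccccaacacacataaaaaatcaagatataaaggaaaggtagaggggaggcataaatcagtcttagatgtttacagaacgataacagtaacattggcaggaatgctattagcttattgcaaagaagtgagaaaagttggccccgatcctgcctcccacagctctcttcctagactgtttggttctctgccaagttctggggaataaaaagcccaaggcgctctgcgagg
All capitals in these 4 windows are Meis motif matches (on the opposite strand the motif reads in reverse complement). Il1rn held 4 of them before this start. The 2 before a start whose window overlaps it are among the same 4 sites. Its most upstream start held 0, while Il18bp held 1. Il1r2, which was lower after the deletion, also held 1, as did 1 of 2 starts of Il1rl1. Il1r2 held 1 match to the STAT motif as well, and 1 of 2 starts of Il1r1 held 1 to the NF-kB motif. Over all promoters, 0.0304% had at least 4 matches, a count looked up after the matches in Il1rn had been seen. Neither Il33 window held any of the 4 motifs, nor did that of Il18. These matches are letters only: no binding was measured, and the start that each probe set reads was not looked up.

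Of the 9 genes, 8 passed the filter on low values, a threshold of 4.29 on the log2 scale under which the lowest 40% of probe sets lay. In each of the 8 the level was above that threshold in both groups. Each gene is represented by its kept probe set with the highest mean. All 8 passed the limma test over 11836 genes, 4 higher and 4 lower, in a comparison where 35.5% of all genes passed, 18.1% higher and 17.5% lower. In all 8 the 2 groups of arrays did not overlap, which was true of 38.6% of all genes (19.7% with the deleted arrays higher, 18.9% with them lower). Of the 8, 5 passed with a difference of at least 1 either way, as did 3.19% of all genes. Because the genes were chosen with this comparison in view, those counts carry no weight, and the differences below are given as descriptions, with standard errors (SE) of the fit but no p-values. The median difference of the 8 was 0.18, against -0.00 over all genes. All differences are Meis1 deleted minus Hoxa9 and Meis1, on the log2 scale.

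**Figure D1:**
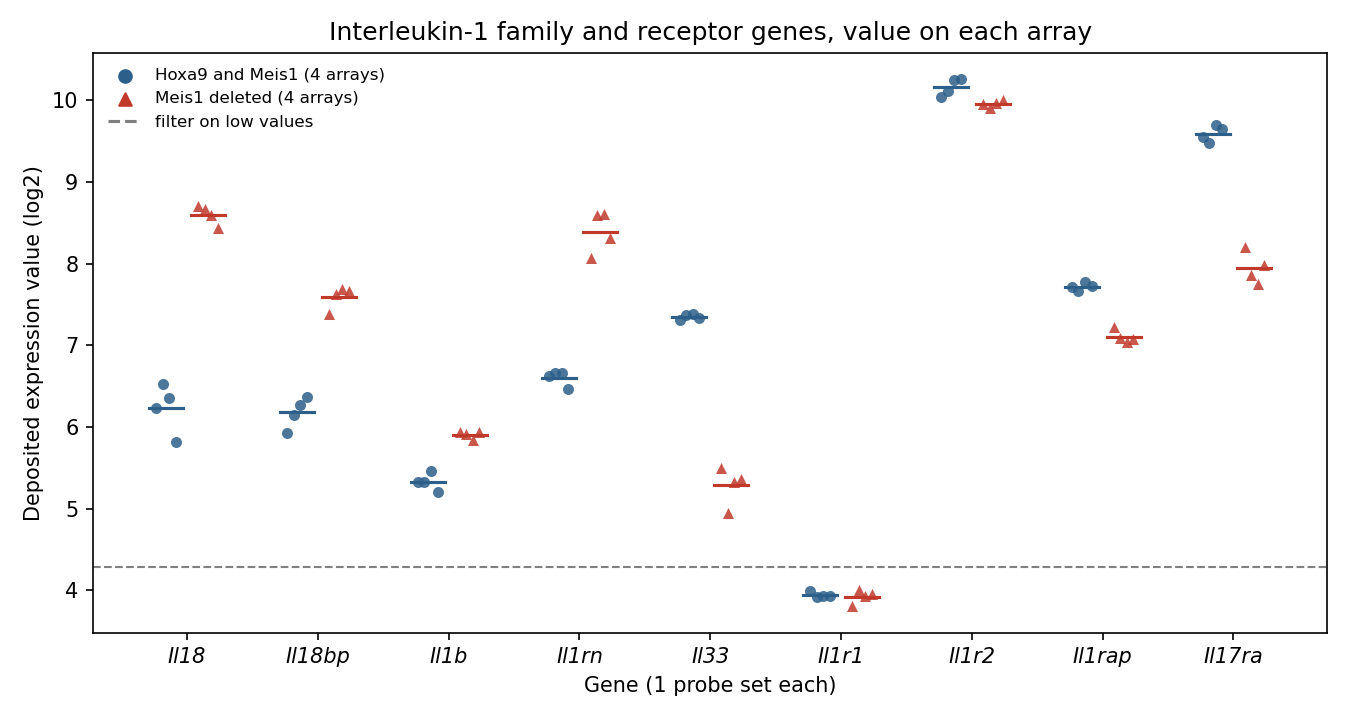
Deposited log2 expression value (vertical axis) of 9 genes on each of 8 arrays, 1 probe set a gene; short lines are group means and the dashed line is the filter threshold of 4.29. Il18, Il18bp, Il1b and Il1rn are higher on all Meis1 deleted arrays, Il33, Il1r2, Il1rap and Il17ra are lower on all of them, and Il1r1 lies under the threshold in both groups.

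The arrays had medians between 4.69 and 4.74. Meis1 deleted replicate 1 stood apart in RNA quality: its Gapdh control read 0.72 higher at the 3′ than at the 5′ end, against -0.07 to 0.04 on the other 7 arrays. Its actin control differed by 0.67, against 0.32 to 0.38 on the others. The level of the spiked bioB hybridisation control split the arrays into a set at 4.04 to 4.28 (3 deleted, 2 control) and a set at 6.43 to 6.61 (1 deleted, 2 control). The labels name a myeloid cell type, and all 9 myeloid markers were kept, with a mean level of 10.6 on each deleted array and 10.3 to 10.4 on the controls. Macrophage markers moved with the contrast. All 7 passed as higher, and their mean level was 9.59 to 9.67 in deleted and 6.55 to 6.70 in control arrays. The 7 neutrophil markers were also all higher, at 11.0 against 9.63 to 9.65. Whether a shift toward such cells plays a part in the results below was not tested, and in bulk RNA, fewer cells of a type and less RNA per cell cannot be told apart.

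Among the ligands, Il33 was lower and Il18 and Il1b were higher after the deletion. Il33, the alarmin that signals through Il1rl1, read 5.50, 4.95, 5.33 and 5.36 on Meis1 deleted arrays 1 to 4. On the Hoxa9 and Meis1 arrays it read 7.31, 7.38, 7.38 and 7.33. The control arrays lay close together, and 1.81 separated the lowest of them from the highest deleted array. Group means were 5.29 ± 0.24 (SD, n = 4) and 7.35 ± 0.04, a difference of -2.06 ± 0.10 (SE), or 4.18-fold. Il33 had the sixth most negative difference of the 11836 genes. With an offset of 64 added on the linear scale the difference was -1.14.

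Mast cells and basophils are the cells of bone marrow cultures best known for answering Il33. Of their 9 markers with a probe set, 5 were kept, and the mean level of the 9 was 4.78 to 4.91 in deleted arrays, a range that held all control arrays. Cpa3, Fcer1a, Cma1 and Mcpt4 lay under the filter. Mcpt8, a basophil protease, fell by 0.74 (limma adjusted p = 0.00144), and Ms4a2, a chain of the IgE receptor, rose by 0.20 (limma adjusted p = 0.0435). Stromal and endothelial cells are main sources of Il33 in tissues. Of their 6 markers, Col1a1, Col3a1, Pdgfra, Pdgfrb and Cdh5 were under the filter, between 3.13 and 4.31 in either group. The remaining one, Pecam1, which endothelial and many blood cells carry, fell from 7.87 ± 0.04 to 7.49 ± 0.23 (difference -0.38, limma adjusted p = 0.0174), the same direction as Il33; its part in the result was not tested.

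Il18, a cytokine that drives interferon-gamma production, read 8.70, 8.67, 8.60 and 8.44 on the Meis1 deleted arrays. The Hoxa9 and Meis1 arrays read 6.24, 6.53, 6.36 and 5.82. This was the largest rise of the family. The means of 8.60 ± 0.12 and 6.24 ± 0.30 (SD, n = 4) differed by 2.37 ± 0.14 (SE), or 5.16-fold, and the arrays closest to the other group lay 1.90 apart. Here the control arrays were the more spread, with Hoxa9 and Meis1 replicate 4 lowest. With an offset of 64 the difference in Il18 was 1.70.

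Il1b, which encodes interleukin-1 beta, differed far less. It read 5.94, 5.91, 5.84 and 5.95 on the Meis1 deleted arrays and 5.32, 5.33, 5.47 and 5.21 on the controls. The groups were separated by 0.37, and the difference was 0.58 ± 0.06 (SE), or 1.49-fold. It was 0.25 with an offset of 64. Among the 3 arrays of the higher bioB set alone it was 0.61 ± 0.13 (SE), where the gene did not pass the test, and in the lower set 0.57 ± 0.06. Il1a, the neighbouring gene for interleukin-1 alpha and not among the chosen genes, rose from 5.33 ± 0.12 to 6.19 ± 0.32 (difference 0.85 ± 0.14, limma adjusted p = 0.00144; 0.40 with an offset of 64).

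Both genes for blocking proteins were higher. Il18bp read 7.38, 7.63, 7.69 and 7.67 on the Meis1 deleted arrays. It read 5.93, 6.15, 6.27 and 6.37 on the Hoxa9 and Meis1 arrays. The lowest deleted array was 1.01 above the highest control array, and the difference was 1.41 ± 0.10 (SE), 2.67-fold (0.91 with an offset of 64). Il18 and the gene for its captor were thus both higher on the same arrays, although array values do not give the ratio of one transcript to the other.

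Il1rn, the receptor antagonist, was read by 3 probe sets. The representative one (1451798_PM_at) gave 8.07, 8.60, 8.61 and 8.31 on the Meis1 deleted arrays and 6.63, 6.67, 6.67 and 6.47 on the controls. The groups were 1.40 apart, with a difference of 1.79 ± 0.12 (SE), 3.45-fold (1.31 with an offset of 64). A further probe set (1425663_PM_at) gave a like difference of 1.68 ± 0.07, also without overlap. The remaining one (1423017_PM_a_at) gave 6.51, 8.23, 8.12 and 7.75 on the deleted arrays and 6.22, 6.53, 6.20 and 5.97 on the controls. There the deleted replicate 1 fell just inside the control range, and the difference of 1.42 ± 0.32 became 1.80 without that array. Its lower value occurred on the array with the raised Gapdh ratio, and the part of RNA quality in it was not tested.

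**Figure D2:**
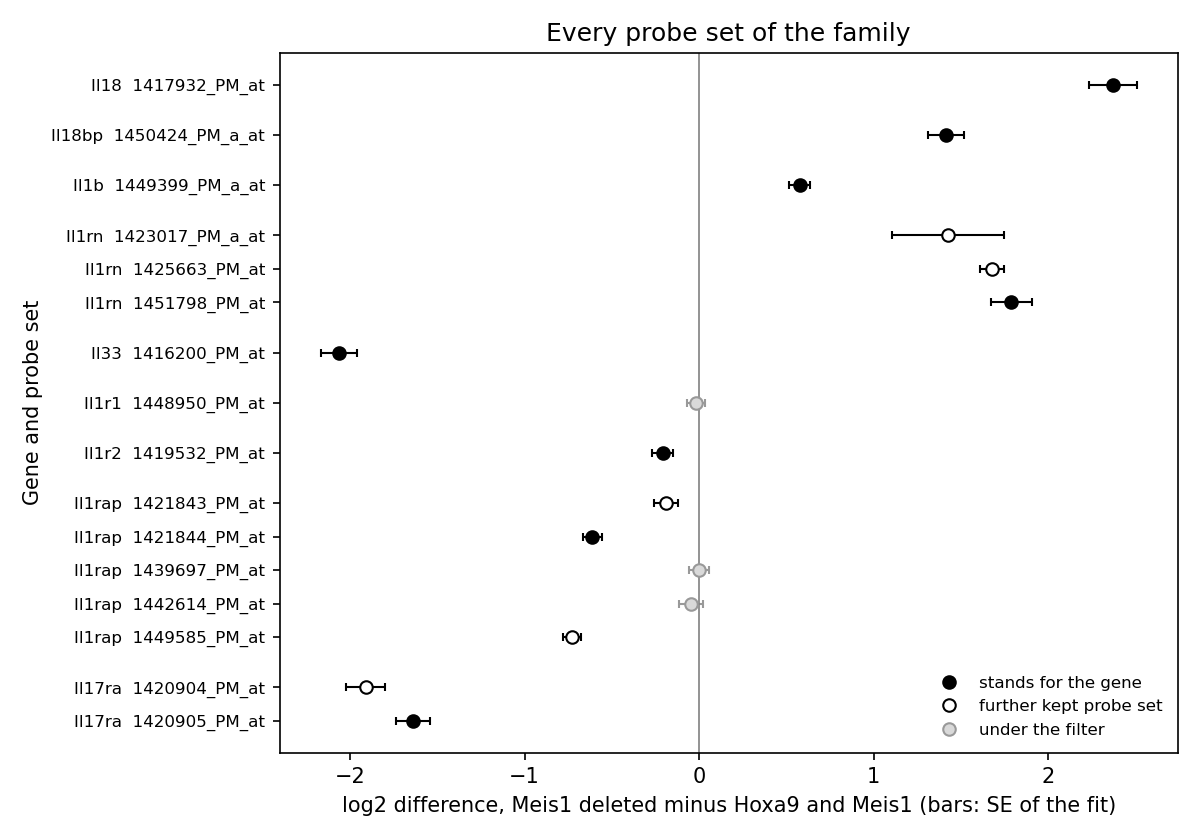
Difference in log2 value between the groups (horizontal axis, bars are SE of the fit) for all 16 probe sets of the 9 genes; filled points stand for their gene, open points are further kept probe sets and grey points lie under the filter. The 3 Il1rn probe sets lie between 1.42 and 1.79 and both Il17ra probe sets are at or below -1.64, whereas the 5 Il1rap probe sets range from -0.73 to -0.00.

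The receptor genes were lower or near the floor. Il17ra, read by 2 probe sets, had the largest difference among them. Its representative probe set read 8.21, 7.86, 7.75 and 7.99 on the Meis1 deleted arrays and 9.55, 9.48, 9.70 and 9.65 on the controls. The gap between the groups was 1.27 and the difference was -1.64 ± 0.10 (SE), 3.12-fold (-1.42 with an offset of 64). The other probe set, with a lower signal, gave -1.91 ± 0.11 and did not overlap either. The difference of the representative probe set was the 14th most negative of all genes.

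Il1rap, the shared second chain, was read by 5 probe sets that did not move alike. The representative one (1421844_PM_at) read 7.23, 7.09, 7.04 and 7.08 on the Meis1 deleted arrays and 7.71, 7.67, 7.77 and 7.73 on the controls. These values were 0.44 apart and differed by -0.61 ± 0.05 (SE), 1.53-fold. The difference of the gene was -0.44 with an offset of 64. It was -0.51 with the mean of its kept probe sets, which leaves out those under the filter. Probe set 1449585_PM_at gave -0.73 ± 0.05. Probe set 1421843_PM_at gave only -0.19 ± 0.07, with groups 0.01 apart. The other two, at levels of 3.65 to 3.79 in either group, lay under the filter and showed no separation. Il1rap has membrane and soluble transcript forms, and the form that each probe set reads was not looked up.

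Il1r2, the decoy receptor, read 9.96, 9.91, 9.97 and 10.00 on the Meis1 deleted arrays. It read 10.05, 10.12, 10.26 and 10.26 on the Hoxa9 and Meis1 arrays. The groups were only 0.05 apart, and the difference was -0.21 ± 0.06 (SE), 1.16-fold. The 2 highest controls were those of the higher bioB set, and the difference was -0.14 within the lower bioB set and -0.26 within the higher one. The call was lost in 5 of 22 alternative analyses, namely within each bioB set and without Meis1 deleted replicate 2, Hoxa9 and Meis1 replicate 3 or Hoxa9 and Meis1 replicate 4.

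Il1r1, the signalling receptor for interleukin-1, was near the floor of the table in both groups. Its only probe set read 3.81 to 4.00 on the deleted arrays and 3.92 to 4.00 on the controls, under the filter threshold. Probe sets for nonspecific sequence had medians of 3.16 to 3.28 on the same arrays. The groups overlapped, with a difference of -0.02 ± 0.05 (SE), and no change was detectable at this signal.

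In the RefSeq table Il1r2, Il1r1, Il1rl2, Il1rl1, Il18r1 and Il18rap follow each other on chromosome 1 with 0 other coding genes starting between them. The first and the last of these were kept and both were lower, Il1r2 at -0.21 and Il18rap at -0.41, while Il1r1, Il1rl2 and Il18r1 were under the filter in mean level. On chromosome 2 Il1a and Il1b lie side by side and both were higher, by 0.85 and 0.58. Also there, Il1rn follows Il1f8, Il1f9, Il1f6, Il1f5 and Il1f10. Of those 5 neighbours none passed the test, and the 3 that were kept had differences from -0.01 to 0.10, beside 1.79 for Il1rn.

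The lists for the rest of the pathway held 120 other gene symbols, chosen with earlier results known. Some ligand genes were listed under both an older and a newer symbol. Of the 120 symbols, 100 had a probe set and 78 were kept. Of the kept genes 21 rose and 14 fell, together 44.9%, beside 35.5% of all genes, and the median difference was 0.02 (-0.00 over all genes). The 35.5% is also the share to set beside each list below. Because of how the lists were chosen, their counts carry no weight as a test of the pathway. Among 4 kept ligands only Il1a passed. Il1f9, which encodes interleukin-36 gamma, had a mean of 7.75 ± 0.49 and 7.74 ± 0.08, with Meis1 deleted replicate 1 at 7.02 and the other 3 at 7.89 to 8.08. Both kept receptor relatives fell: Il18rap, the second chain of the Il18 receptor, from 7.64 ± 0.05 to 7.23 ± 0.12 (difference -0.41 ± 0.06, limma adjusted p = 9.63e-04), and Sigirr, an inhibitory receptor, by 0.22 (limma adjusted p = 0.00720). Sigirr was not called within the lower bioB set alone, where it read -0.19 (limma adjusted p = 0.0770), and read -0.13 with an offset of 64. Il18r1, the ligand-binding chain for Il18, was at 3.43 and 3.30, near the nonspecific level.

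None of the other 5 kept genes of the interleukin-17 list passed limma's test, 0 of them also at an unadjusted p under 0.05. They were the ligand Il17b, the receptor subunits Il17rc, Il17rd and Il17re and the adaptor Traf3ip2, with differences from -0.12 to 0.04 beside -1.64 for Il17ra. The ligand Il17a was at 4.11 and 4.12, under the filter.

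Of 20 genes of Myddosome and TRAF6 signalling, 3 rose and 4 fell, with a median of -0.02. Their share of 35.0% was close to the 35.5% of all genes. Myd88, the adaptor that the joined receptor chains bind, rose from 8.89 ± 0.06 to 9.33 ± 0.03 (difference 0.44 ± 0.05, limma adjusted p = 6.51e-05). Map3k8, a kinase that links the receptors to ERK, rose by 1.28 ± 0.12 (limma adjusted p = 2.92e-05; 0.55 with an offset of 64). The kinase Mapk8 fell by 0.29 and the kinase-binding Tab3 fell by 0.33 (limma adjusted p = 0.00282 and 0.00318). Mapk8 was not called within either bioB set, where its differences were -0.27 and -0.28 (limma adjusted p = 0.0707 and 0.0593). Tab3 was not called within the lower one, at -0.28 (limma adjusted p = 0.0547). Mapk8 read -0.15 with the mean of its kept probe sets. Traf6 itself read -0.03 ± 0.05 and did not pass.

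Inflammasome and processing genes went both ways, with 4 of 17 higher and 4 lower (47.1%) and a median of 0.02. Casp1, the protease that cuts the precursors of interleukin-1 beta and Il18, rose from 9.37 ± 0.01 to 9.85 ± 0.05 (difference 0.48 ± 0.04, limma adjusted p = 2.35e-05). Casp4, the sensor of intracellular lipopolysaccharide, rose by 0.35 ± 0.05 (limma adjusted p = 3.75e-04), though within the higher bioB set, at 0.36, it was not called (limma adjusted p = 0.0563). P2rx7, the ATP-gated channel upstream of the Nlrp3 inflammasome, rose from 4.70 ± 0.10 to 6.52 ± 0.21 (difference 1.82 ± 0.10, limma adjusted p = 1.02e-06). That difference was 0.80 with an offset of 64 and 0.90 with the mean of its kept probe sets. Nlrp3 fell from 8.46 ± 0.10 to 7.90 ± 0.09 (difference -0.56 ± 0.07, limma adjusted p = 1.62e-04). Pycard, the adaptor between Nlrp3 and Casp1, read -0.03 ± 0.05 and did not pass.

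Of 14 NF-kB subunits and inhibitors, 4 rose and 2 fell (42.9%), with a median of 0.02. The inhibitors split. Nfkbia, the main inhibitor of NF-kB, fell by 0.47 (limma adjusted p = 1.25e-04) and Zc3h12a, a nuclease that degrades cytokine messages, fell by 0.95 (limma adjusted p = 1.43e-05; -0.43 with an offset of 64). Tnfaip3, a feedback inhibitor, rose by 0.65 ± 0.08 (limma adjusted p = 1.66e-04), or 0.40 with an offset of 64. Nfkbiz, a nuclear cofactor, rose by 0.44 ± 0.05 (limma adjusted p = 1.29e-04), or 0.27 with the mean of its kept probe sets. The inhibitor Nfkbie had the largest difference of the list, a rise of 1.27 ± 0.16 (limma adjusted p = 2.43e-04). The subunit Relb rose by 0.55 ± 0.09 (limma adjusted p = 0.00106), from a control mean of 4.10 that lay under the filter threshold, and the subunit Rela read 0.01 ± 0.10 and did not pass.

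Genes that interleukin-1 or interleukin-17 can induce gave the widest range. Of 11 kept, 6 rose and 1 fell (63.6%), with a median of 0.25. Ccl7 rose from 4.44 ± 0.10 to 10.41 ± 0.10 (limma adjusted p = 6.69e-11), Ccl2 from 6.42 ± 0.03 to 10.93 ± 0.06 (limma adjusted p = 4.52e-11) and Saa3 from 7.79 ± 0.08 to 11.67 ± 0.05 (limma adjusted p = 8.82e-11). The Ccl7 control mean lay near the filter threshold of 4.29, and its difference of 5.97 was 4.05 with an offset of 64. Ccl2 differed by 4.51 (3.75 with that offset) and Saa3 by 3.88 (3.54 with it). Ccl7 and Ccl2 attract monocytes, and Saa3 is an acute-phase protein. Cxcl2, a neutrophil chemokine, rose by 1.36 ± 0.06 (limma adjusted p = 1.32e-07; 0.51 with an offset of 64). The 1 gene that fell was Ptgs2, a prostaglandin synthase, by 0.63 (limma adjusted p = 0.00206). Lcn2, an antimicrobial protein often used as a readout of interleukin-17, was at 10.62 ± 0.07 and 10.56 ± 0.04 and did not pass. Il6, Cxcl1, Cxcl5, Csf2, Il12b and Il10 were under the filter.

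**Figure D3:**
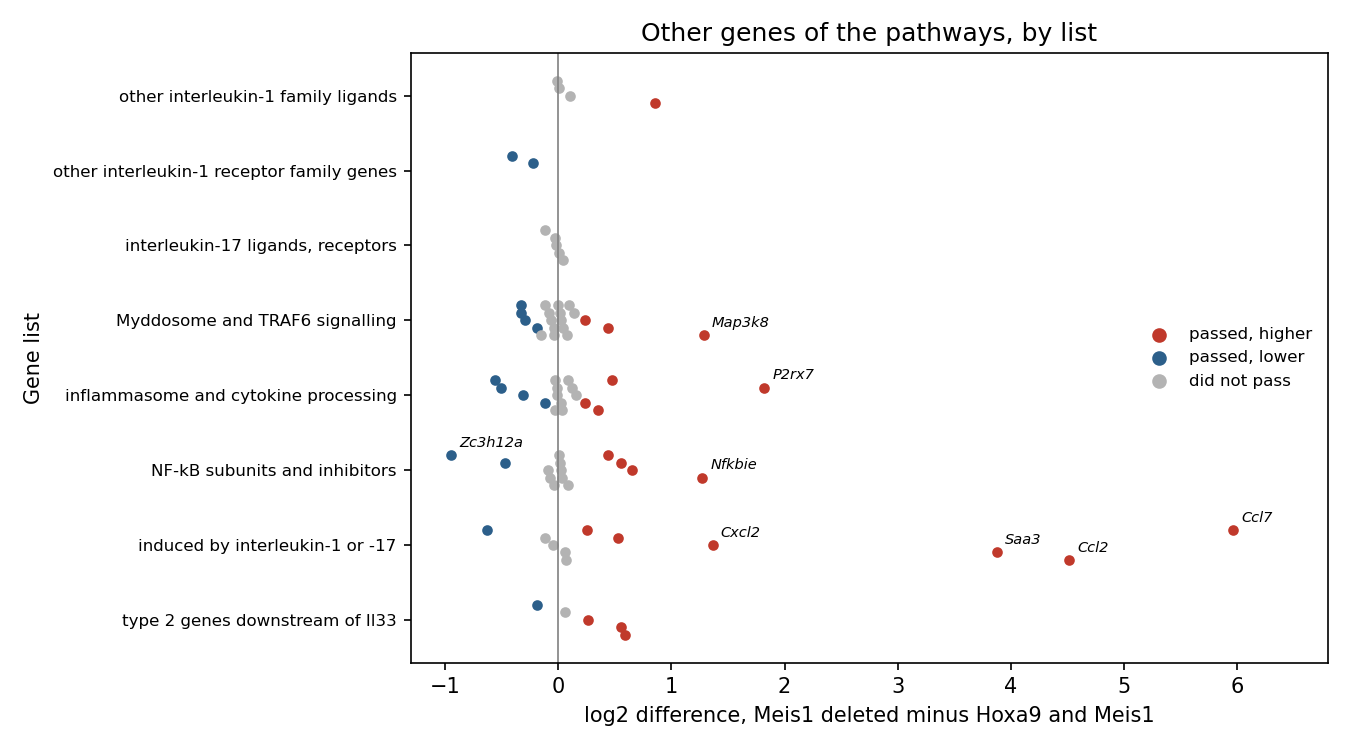
Difference in log2 value between the groups (horizontal axis) for each kept gene of 8 pathway lists (vertical axis); red genes passed the limma test as higher, blue genes as lower, grey genes did not pass. Most genes lie within 1 of 0, and the far points on the right are Ccl7, Ccl2 and Saa3.

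Of the genes listed as type 2 genes downstream of Il33, only 5 of 11 with a probe set were kept, of which 3 rose and 1 fell (80.0%, median 0.26). Arg1 rose from 9.69 ± 0.04 to 10.28 ± 0.18 (limma adjusted p = 5.35e-04) and Ccl24, an eosinophil chemokine, rose by 0.55 ± 0.10 (limma adjusted p = 0.00220; 0.25 with an offset of 64). Ccl24 was not called within either bioB set, where its differences were 0.55 and 0.52 (limma adjusted p = 0.0618 and 0.0586). Il4ra, a chain of the Il4 and Il13 receptors, rose by 0.26 ± 0.08, though its groups overlapped (limma adjusted p = 0.0334; 0.11 with an offset of 64), and the transcription factor Gata2 fell by 0.19 (limma adjusted p = 0.0185; -0.06 with that offset). Both calls were lost within each bioB set, at 0.26 and 0.31 for Il4ra and -0.20 and -0.16 for Gata2. Il4ra also lost its call without any 1 of 6 arrays (limma adjusted p from 0.0507 to 0.0924), the exceptions being Meis1 deleted replicate 1 and Hoxa9 and Meis1 replicate 4. Gata2 lost its call without Hoxa9 and Meis1 replicate 2 or 3 (0.0540 and 0.0566) and with an offset of 64 (0.0522). The cytokines Il4, Il5, Il13 and Il9 were under the filter, between 3.44 and 4.19 in either group.

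By Pearson correlation over the 8 arrays, the genes closest to Il33 were Zfp800 (r = 0.998), Smad7 (0.998) and Ambp (0.996), all lower after the deletion, by -0.60, -1.60 and -1.65. Closest to Il18 were Polk (0.996), Phlda3 (0.995) and Slfn1 (0.994), all higher, by 0.74, 0.72 and 2.58. The 8 arrays fall into the 2 groups, and each of these 6 genes had groups that did not overlap. Group means were not removed, so a high r can come from the group difference alone. It does not show that the genes vary together within a group.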

How the data were processed

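Biotin-labelled cRNA from 100 ng of total RNA per sample was hybridised to Affymetrix arrays, per the labels' protocols. The authors deposited a log2 value for each probe set on each array, already normalized between arrays; the scale and normalization were judged from the values. The submitters' processing notes name MAS5, without a version; the sources used here do not state how probes were summarised. The 45141 probe sets included 104 controls. Of the others, 28898 carried 1 gene symbol in GEO's platform annotation, 551 several and 15588 were unnamed here; RefSeq changed 0 symbols.

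Probe sets in the lowest 40% by mean (under 4.29) were left out, which kept 27022. limma 3.58.1 (lmFit, eBayes; R 4.3.3) was fitted to all kept probe sets, and p-values of the 11836 genes, each represented by its highest kept probe set, were adjusted by Benjamini-Hochberg (threshold 0.05). SEs of further probe sets came from a fit of all probe sets. The procedure was tested on simulated data. Plots were made with Python 3.11.15 and matplotlib 3.10.9. For arrays, their number limits the precision.

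The chosen genes, the lists and the tests were set with earlier results of these data known. Named were all chosen genes, up to 4 passing genes per list with the smallest adjusted p, and the 3 genes most like Il33 and most like the member with the largest rise; other names were chosen after their values were seen. Alternatives covered offsets of 1 and 64, normalization, filters, probe set choice, moderation, array weights, the replicate number and the bioB set as blocks, each bioB set alone, and each array left out.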

Additional observations from a re-analysis of the deposited data

Results flagged for a closer look

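In 78 groups of 4 arrays (the probe sets of the 9 genes and of the named pathway genes), 4 had 1 array far from the other 3 for their range, about the 1 in 20 that chance gives. In Il1rn probe set 1425663_PM_at, Hoxa9 and Meis1 replicate 4 read 5.52, with 5.71 the nearest. In Il1rap probe set 1439697_PM_at, under the filter, Meis1 deleted replicate 3 read 3.69, with 3.81 the nearest. Meis1 deleted replicate 1 read 7.41 for Il18rap, with 7.19 the nearest, and 6.57 for Map3k8, with 6.08 the nearest.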

How the results depend on the processing

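The differences of the 8 kept genes had the same sign under all 22 alternatives. Leaving out 1 array at a time gave -2.14 to -1.95 for Il33, 2.23 to 2.47 for Il18, -1.72 to -1.57 for Il17ra and 1.72 to 1.90 for Il1rn. The count of 4206 changed genes (2140 higher, 2066 lower) was 2115 (1220 and 895) within the lower bioB set and 2137 (1146 and 991) within the higher one, with 5 and 3 arrays; the single deleted array of the higher set was taken to vary as its controls do. Testing each probe set alone gave 6145 changed (2990 higher, 3155 lower), over 18749 probe sets in place of 11836 genes. Of the pathway genes, 35 passed, and 23 within each bioB set; the 14 lower ones became 7 and 9. For the 23 named pathway genes, 484 of 504 values kept direction and call, 20 lost the call and 0 reversed. Deviations of arrays with the same replicate number correlated between -0.13 and 0.29, so the number was not taken as a pairing; with the replicate block 3906 genes and 33 pathway genes passed.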
